A study of Homo sapiens with 8 samples.

Results

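*HABP4*, *WBP1*, *STK40*, *FMC1* and *SCG2* are 5 less-studied genes whose transcript levels were higher in HCT116 cells after knockdown of the homeobox factor HHEX. They were chosen by their FPKM values in these same libraries, because siHHEX libraries lay above control libraries, and for some of them the other knockdowns lay above as well. The 5 genes are 5 of the 20030 rows of the deposited tables, and all 5 were among the 10677 genes tested, those that reached 1 FPKM in 2 or more libraries. Their changes are therefore given as a description, with no p. Since all 3 knockdown conditions are set against the same control libraries, and all were known when the genes were picked, no contrast between conditions is tested for them either.

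RNA was sequenced in 8 libraries of HCT116, a human colorectal cancer cell line, after transfection with siRNA. There were 2 libraries with control siRNA (siNC), 3 with siRNA against *HHEX* (siHHEX), 2 with siRNAs against both *YAP1* and *WWTR1*, the gene of TAZ (siYAP/TAZ), and 1 with siRNAs against the 4 *TEAD* genes (siTEAD1/2/3/4). The series asks how far HHEX and the YAP-TEAD complex control the same genes. All groups share 1 cell line and transient transfection, and the siHHEX and siYAP/TAZ libraries carry different numbered siRNAs in the study's methods, so that libraries of a group also differ in siRNA. Libraries of different siRNAs are separate transfections, while for the siNC pair the sources used here do not say whether the cultures were separate, and p-values of the lists below measure only the spread between these libraries. The time after transfection for these libraries is likewise not given in the sources used here. The FPKM of all genes summed to between 331663 in siYAP/TAZ 1 and 383423 in siHHEX 3. The spacing of low values gave depths between 0.959 and 1.09 times that of siNC 1, with the number of reads unknown.

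The 5 products have unrelated known roles. HABP4 is an intracellular RNA-binding protein and the paralog of SERBP1, and both associate with ribosomes. WBP1 carries a PPxY motif and was found as a ligand of the WW domain of YAP. STK40 is a pseudokinase related to the Tribbles proteins, which bring substrates to the ubiquitin ligase COP1. FMC1 is a mitochondrial factor that helps assemble ATP synthase. SCG2, secretogranin II, is a granin packed into the dense-core granules of endocrine and neural cells and is cut into peptides such as secretoneurin. HHEX itself is a homeodomain factor best known as a repressor, and YAP and TAZ are coactivators that reach DNA through TEAD factors when Hippo signalling is low.

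The knocked-down genes were read first. *HHEX* stood at 8.60 and 9.06 FPKM in siNC and at 3.25, 3.54 and 1.85 FPKM in siHHEX 1, 2 and 3, a log2 change of -1.37 (limma, adjusted p = 0.0054). In siYAP/TAZ, *WWTR1* was lower by a log2 change of -1.10 (limma, adjusted p = 0.0156), and *YAP1* went from 20.2 and 19.7 FPKM in siNC to 6.90 and 8.39 FPKM, a log2 change of -1.28 (limma, adjusted p = 0.0681). *YAP1* was also lower in siHHEX 1 and 3, at 5.77 and 6.93 FPKM, but stood at 17.4 FPKM in siHHEX 2, a log2 change of -1.07 for the group (limma, adjusted p = 0.0429) and of -0.77 after the GC and length correction described below (limma, adjusted p = 0.172). *TEAD1* was lower in all 3 siHHEX libraries, at 6.99, 10.2 and 5.30 FPKM against 18.3 and 19.0 FPKM in siNC, a fall by 1.25 (limma, adjusted p = 0.00641) and by 0.92 after the correction (limma, adjusted p = 0.0205). *TEAD2* rose in siHHEX by 0.78 (limma, adjusted p = 0.00709), with 0.45 after the correction (limma, adjusted p = 0.099), and *TEAD4* fell in siYAP/TAZ by 0.63 (limma, adjusted p = 0.025). In siHHEX *TEAD4* was at -0.11 (limma, adjusted p = 0.503) and passed after the correction, at -0.52 (limma, adjusted p = 0.0381), as *YAP1* then did in siYAP/TAZ, at -1.30 (limma, adjusted p = 0.0463). In the library labelled siTEAD1/2/3/4, *TEAD4* was at 5.56 FPKM against 20.3 and 21.3 FPKM in siNC and *TEAD1* at 9.02 FPKM. *TEAD2* stood at 2.73 FPKM against 4.10 and 3.47 FPKM, whereas *TEAD3* went against the label, at 9.08 FPKM against 7.36 and 6.99 FPKM in siNC.

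In siNC the 5 genes were expressed at low to moderate levels, with *WBP1* the most abundant at 9.78 ± 0.822 FPKM and *FMC1* the least at 2.65 ± 0.326 FPKM (SD, n = 2). All 5 were above both siNC libraries in every one of the 6 knockdown libraries, a pattern that 16.9% of the tested genes shared. Of all tested genes, 33.1% had every siHHEX library above both siNC libraries, 42.9% had every siYAP/TAZ library above them, and 52.3% had the library labelled siTEAD1/2/3/4 above them. Log2 changes here and below are on the log2(FPKM + 1) scale, which understates the change of genes at low FPKM. On it, all 5 members were over 2-fold higher in siHHEX, as were 0.731% of tested genes, which reflects how they were chosen. In siYAP/TAZ the count was 3 members (*HABP4*, *WBP1* and *SCG2*), against 1.30% of tested genes. In the library labelled siTEAD1/2/3/4 it was 2 (*HABP4* and *WBP1*), against 0.412%. These 2 genes were among the 9 tested genes (0.0843%) over 2-fold higher in all 3 knockdown conditions as deposited, and neither was with the GC and length correction described below. The median log2 change of the 5 members was 1.13 in siHHEX, 1.36 in siYAP/TAZ and 0.64 in the library labelled siTEAD1/2/3/4, where the medians of all tested genes were -0.01, 0.08 and 0.06.

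**Figure D1:**
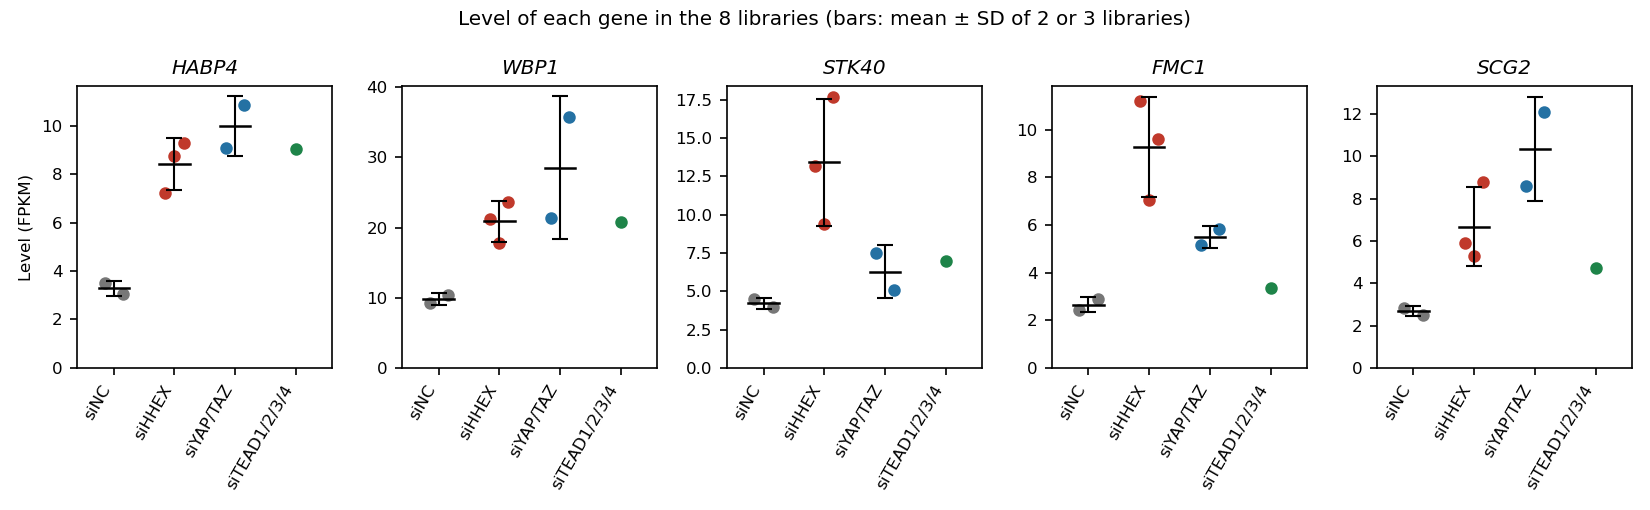
Level in FPKM of each gene in the 8 libraries, with points for libraries, coloured by group, and bars for the mean and SD of groups of 2 or 3. All knockdown points lie above the siNC points, and the siHHEX points lie above the siYAP/TAZ points for *STK40* and *FMC1* but not for the other 3 genes, an order that 23.0% of tested genes had.

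*HABP4*, the RNA-binding ribosome partner, varied the least of the 5 over the 6 knockdown libraries. Its level was 3.51 and 3.06 FPKM in siNC 1 and 2, and 7.23, 8.73 and 9.29 FPKM in siHHEX 1, 2 and 3. It was 9.09 and 10.9 FPKM in siYAP/TAZ 1 and 2, and 9.02 FPKM in the library labelled siTEAD1/2/3/4. The 6 knockdown libraries ran together from 7.23 to 10.9 FPKM with siHHEX and the other conditions interleaved as deposited, well clear of siNC. The log2 change from siNC was 1.13 (SE 0.145) in siHHEX, 1.36 (SE 0.159) in siYAP/TAZ and 1.23 in the library labelled siTEAD1/2/3/4. The siHHEX and siYAP/TAZ libraries overlapped, and their means differed by -0.22 (SE 0.145) on the log2 scale, siHHEX minus siYAP/TAZ.

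*WBP1*, whose product binds the WW domain of YAP, gave 9.20 and 10.4 FPKM in siNC. The siHHEX libraries gave 21.2, 17.8 and 23.6 FPKM, the siYAP/TAZ libraries 21.4 and 35.7 FPKM, and the library labelled siTEAD1/2/3/4 20.8 FPKM. Apart from siYAP/TAZ 2, which stood alone at the top, the knockdown libraries were close to each other. The log2 changes were 1.02 (SE 0.205) in siHHEX, 1.41 (SE 0.225) in siYAP/TAZ and 1.02 in the library labelled siTEAD1/2/3/4. Without siYAP/TAZ 2 the siYAP/TAZ change was 1.05, next to the values of the other conditions.

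*SCG2*, the granin, was at 2.85 and 2.503 FPKM in siNC. It reached 5.91, 5.29 and 8.80 FPKM in siHHEX, 8.62 and 12.1 FPKM in siYAP/TAZ and 4.74 FPKM in the library labelled siTEAD1/2/3/4. siYAP/TAZ 2 was highest, siHHEX 3 fell beside siYAP/TAZ 1, and the other siHHEX libraries lay nearer the library labelled siTEAD1/2/3/4. The siNC mean was 2.68 ± 0.248 FPKM (SD, n = 2), against 6.67 ± 1.88 FPKM after siHHEX (SD, n = 3) and 10.3 ± 2.45 FPKM after siYAP/TAZ (SD, n = 2). The log2 changes were 1.03 (SE 0.207), 1.61 (SE 0.226) and 0.64 in siHHEX, siYAP/TAZ and the library labelled siTEAD1/2/3/4, so that *SCG2* had the highest siYAP/TAZ change of the 5 genes.

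*STK40* and *FMC1* had another order, with every siHHEX library above both siYAP/TAZ libraries, as 23.0% of tested genes had. *STK40*, the Tribbles-related pseudokinase, was at 4.48 and 3.95 FPKM in siNC and at 13.1, 9.36 and 17.7 FPKM in siHHEX. It was at 7.50 and 5.07 FPKM in siYAP/TAZ and 6.995 FPKM in the library labelled siTEAD1/2/3/4. Every siHHEX library was above every other library, although they also spread the most, and siYAP/TAZ 2 was close to siNC. How many tested genes had siHHEX above all other libraries was not counted. The log2 changes were 1.43 (SE 0.237) in siHHEX, 0.46 (SE 0.260) in siYAP/TAZ and 0.62 in the library labelled siTEAD1/2/3/4. Without siYAP/TAZ 1 the siYAP/TAZ change was 0.22, and without siYAP/TAZ 2 it was 0.71. The siHHEX mean lay 0.96 (SE 0.237) above the siYAP/TAZ mean on the log2 scale.

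*FMC1*, the ATP synthase assembly factor, was at 2.42 and 2.88 FPKM in siNC, at 11.2, 7.04 and 9.63 FPKM in siHHEX, at 5.17 and 5.83 FPKM in siYAP/TAZ and at 3.35 FPKM in the library labelled siTEAD1/2/3/4. Its conditions fell in the order siHHEX, siYAP/TAZ, siTEAD1/2/3/4 and siNC, an order whose share among all tested genes was not counted. The mean in siHHEX was 9.29 ± 2.09 FPKM (SD, n = 3), 3.50 times the siNC mean and the highest ratio of the 5 genes in siHHEX. The log2 changes were 1.48 (SE 0.178) in siHHEX, 0.83 (SE 0.195) in siYAP/TAZ and 0.25 in the library labelled siTEAD1/2/3/4. siHHEX lay 0.64 (SE 0.178) above siYAP/TAZ on the log2 scale.

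Distances between the profiles of log2 change over the 6 knockdown libraries describe the same values again, since they are computed from the changes that chose the genes and set the orders above, and the libraries share their siNC mean. The nearest pairs were *WBP1* and *SCG2* (Euclidean distance 0.570) and *HABP4* and *WBP1* (0.572), then *HABP4* and *SCG2* (0.829) and *STK40* and *FMC1* (0.899). The 6 pairs of *STK40* or *FMC1* with one of the other genes were 1.46 to 1.89 apart. Among the other tested genes, the 3 nearest to *WBP1* were *MXD4* (0.252), *TJP3* (0.414) and *WDR54* (0.535). *MXD4* encodes a MAX dimerization partner of the MYC network and *TJP3* a tight junction scaffold, and both were also among the 3 nearest to *SCG2*, at 0.443 and 0.374, after *TP53I3* (0.323), a p53 target gene. For *HABP4* they were *OSBPL5* (0.543), a lipid transfer protein gene, *TPM4* (0.563), a tropomyosin gene, and *MXD4* (0.577). Those of *STK40* were *LAMTOR4* (0.540), a Ragulator subunit gene, *EMC6* (0.544), an ER membrane complex gene, and *TCTA* (0.562), and those of *FMC1* were *MISP3* (0.506), *SDSL* (0.581) and *TMEM141* (0.616).

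The 5 genes lie on 4 chromosomes and differ in size and base composition. In GRCh38 with GENCODE annotation, *HABP4* is at chr9:96450169-96491336 on the plus strand with 8 exons in a canonical transcript of 2651 bases. *WBP1* is at chr2:74458400-74460891 on the plus strand with 4 exons and 1175 bases, and *SCG2* at chr2:223596940-223602361 on the minus strand with 2 exons and 2434 bases. *STK40* is at chr1:36339624-36385924 on the minus strand with 11 exons and 3645 bases, and *FMC1* at chr7:139339457-139346328 on the plus strand with 2 exons and 1014 bases. *WBP1* and *STK40* are rich in GC, at 60.9% and 59.3%, the 85.3 and 80.3 percentiles of tested genes, whose median is 49.1%. *HABP4* is at 53.5%, *FMC1* at 47.3% and *SCG2* at 42.5%, the 27.0 percentile.

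Promoter windows of 250 bases before to 50 after a start site were taken from a table of RefSeq promoters (GRCh38.p14) and matched by symbol for 4 of the 5 genes, *HABP4*, *WBP1*, *STK40* and, with 2 starts, *FMC1*, so that *SCG2* is not among the windows described. Shown 5′ to 3′ on the gene's strand are *HABP4* and *WBP1*, the pair over 2-fold higher in all 3 knockdown conditions before the GC and length correction. *STK40*, which was highest in siHHEX, and the *FMC1* start with a homeodomain core match are shown as well. Capitals mark GGGCGG or its reverse complement CCGCCC, the core bound by SP and KLF factors, and, in *FMC1*, the overlapping homeodomain core matches ATTAA on one strand and TTAAT on the other.
HABP4, chr9:96449919-96450218, plus strand: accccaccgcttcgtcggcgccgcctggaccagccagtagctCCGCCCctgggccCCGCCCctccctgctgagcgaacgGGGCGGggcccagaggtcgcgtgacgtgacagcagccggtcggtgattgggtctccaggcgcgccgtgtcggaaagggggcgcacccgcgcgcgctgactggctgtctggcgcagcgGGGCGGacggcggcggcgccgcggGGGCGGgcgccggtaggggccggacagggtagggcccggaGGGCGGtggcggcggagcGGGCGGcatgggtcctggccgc
WBP1, chr2:74458188-74458487, plus strand: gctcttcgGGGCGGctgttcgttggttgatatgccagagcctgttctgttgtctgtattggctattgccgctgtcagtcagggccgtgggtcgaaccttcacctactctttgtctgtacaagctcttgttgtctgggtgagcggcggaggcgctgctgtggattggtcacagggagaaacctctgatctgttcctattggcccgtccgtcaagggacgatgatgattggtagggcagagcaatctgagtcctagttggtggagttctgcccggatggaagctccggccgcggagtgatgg
STK40, chr1:36385875-36386174, minus strand: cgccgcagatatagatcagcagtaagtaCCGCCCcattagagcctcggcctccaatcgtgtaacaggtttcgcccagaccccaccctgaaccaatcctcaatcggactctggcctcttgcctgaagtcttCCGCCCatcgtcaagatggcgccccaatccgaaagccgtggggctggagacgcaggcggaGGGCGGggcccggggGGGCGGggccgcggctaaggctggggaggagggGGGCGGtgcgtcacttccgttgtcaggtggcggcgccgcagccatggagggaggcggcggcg
FMC1, chr7:139341087-139341386, plus strand: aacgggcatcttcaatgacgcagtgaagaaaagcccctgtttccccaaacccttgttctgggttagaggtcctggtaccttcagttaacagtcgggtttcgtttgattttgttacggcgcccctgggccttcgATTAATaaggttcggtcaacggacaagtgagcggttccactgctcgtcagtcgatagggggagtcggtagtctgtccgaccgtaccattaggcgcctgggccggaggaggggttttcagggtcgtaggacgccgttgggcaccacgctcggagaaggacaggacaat

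*HABP4* has 79% GC, 44 CpG sites and 7 matches to the SP and KLF core, where the median of all 35116 RefSeq promoters is 58.7% GC and 14 CpG sites. *STK40* has 67.3% GC, 28 CpG sites and 5 such matches, and *WBP1* 56.7% GC, 16 CpG sites and 1 match. The SP and KLF core occurs in 44.95% of all promoters of this length. The *FMC1* window shown has 55.7% GC and 22 CpG sites and holds the only homeodomain core among the 5 windows, a word found in 24.4% of all promoters. The other *FMC1* start, chr7:139340222-139340521, has 64.3% GC and 40 CpG sites and no match to any word searched. None of these 5 windows holds the TEAD core GGAATG or its reverse complement CATTCC (14.03% of all promoters), the AP-1 word TGANTCA (7.71%), the cyclic AMP response word TGACGTCA (1.85%), or TATAAA on either strand (11.5%). These matches describe letters in the windows and not binding.

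GC content and transcript length moved with the siHHEX libraries as a whole. Across the 10617 tested genes with an annotated GC content, Spearman's rho between GC and the log2 change from the siNC mean was 0.679, 0.599 and 0.755 in siHHEX 1, 2 and 3, but 0.0603 and -0.0517 in siYAP/TAZ and 0.298 in the library labelled siTEAD1/2/3/4. Between the controls, siNC 2 against siNC 1, it was 0.211. With transcript length rho was -0.377, -0.295 and -0.385 in siHHEX 1, 2 and 3, and *WBP1* and *FMC1* are short, at the 8.76 and 6.41 percentiles of length. In siHHEX 3 the median log2 change went from -0.62 in the lowest of 10 GC bins to 0.55 in the highest. The genes share their libraries, so these are descriptions and carry no p.

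**Figure D2:**
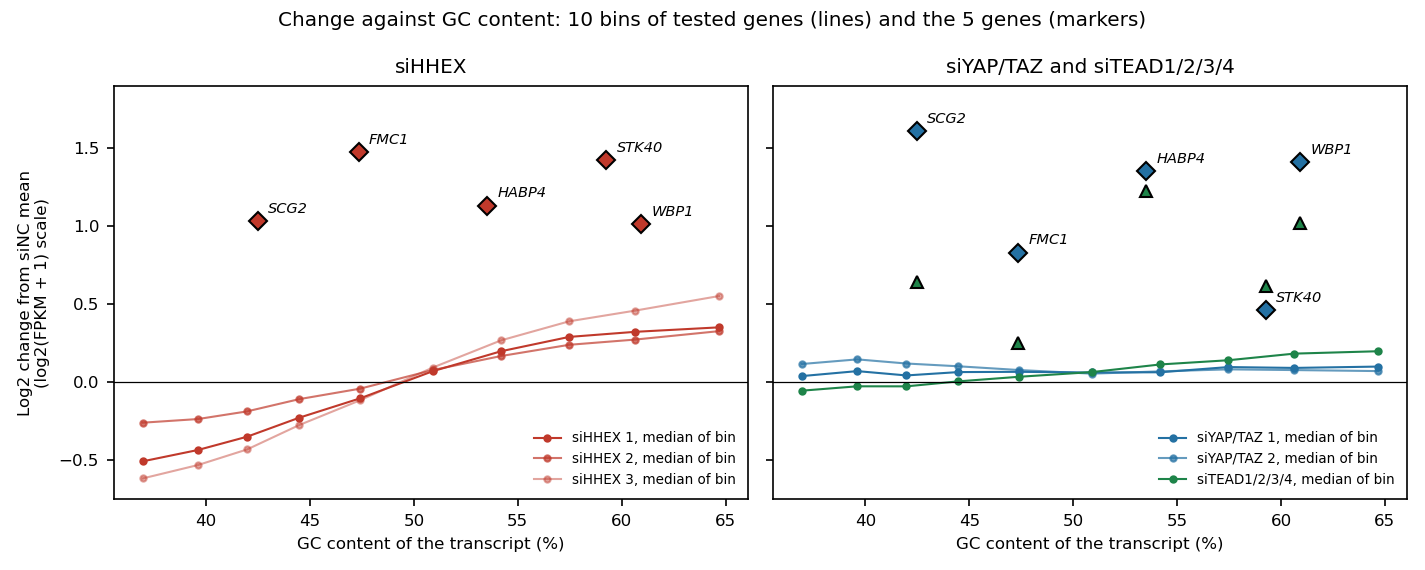
Log2 change from the siNC mean against GC content of the transcript in percent, with lines for the medians of 10 GC bins in each knockdown library and markers for the 5 genes (diamonds siHHEX and siYAP/TAZ means, triangles the library labelled siTEAD1/2/3/4). The bin medians climb with GC in siHHEX, from -0.62 to 0.55 in siHHEX 3, and are nearly flat in siYAP/TAZ, and the siHHEX diamonds lie above the bin medians at every GC content.

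The 5 genes stood differently against this trend. *WBP1* and *STK40* lie in the same GC bin, the ninth, whose median log2 change was 0.32, 0.27 and 0.46 in siHHEX 1, 2 and 3, whereas *SCG2* lies in the bin numbered 3, where the medians were -0.35, -0.19 and -0.43. With a smooth trend on GC content and transcript length taken off each library, the siHHEX change of *WBP1* went from 1.02 to 0.53, with 0.54, 0.48 and 0.57 in the 3 libraries. That of *HABP4* went from 1.13 to 0.96 and that of *STK40* from 1.43 to 1.14. *FMC1* was little moved, from 1.48 to 1.38, and *SCG2* went up from 1.03 to 1.29. After this correction 3 of the 5 genes (*STK40*, *FMC1* and *SCG2*) were over 2-fold higher in siHHEX, where 14 of 10617 genes (0.132%) were. The siYAP/TAZ changes moved little, to 1.39 for *HABP4*, 1.41 for *WBP1*, 0.46 for *STK40*, 0.85 for *FMC1* and 1.64 for *SCG2*. In the library labelled siTEAD1/2/3/4 *WBP1* went from 1.02 to 0.92, which left *HABP4*, at 1.205, as the 1 member over 2-fold higher there, against 0.301% of genes. The corrected siHHEX values of *HABP4*, 0.76, 1.08 and 1.04, lay below those of both siYAP/TAZ libraries, 1.26 and 1.52, and those of *WBP1* lay below 1.06 and 1.76, whereas the uncorrected values of both genes overlapped. After the correction 30.6% of genes had every siHHEX library below both siYAP/TAZ libraries. Every corrected value of every member, in all 6 knockdown libraries, was above 0.

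**Figure D3:**
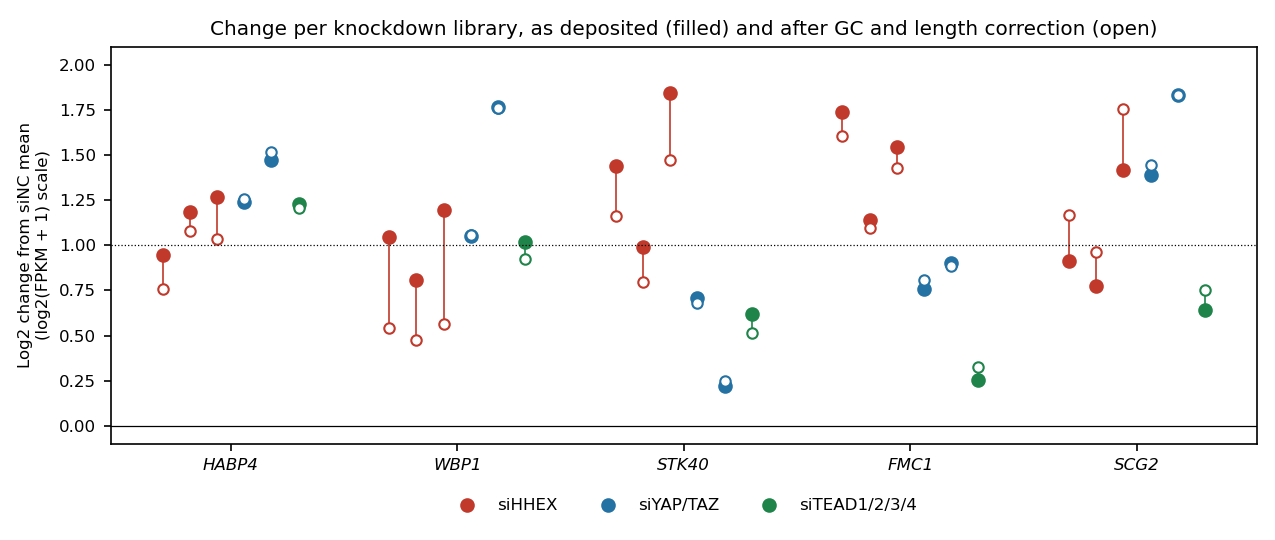
Log2 change from the siNC mean of each gene in each of the 6 knockdown libraries, as deposited (filled circles) and with the trend on GC content and length taken off (open circles), joined by lines and coloured by condition, with a dotted line at a change of 1. The drop is longest for *WBP1* in siHHEX, to 0.48 to 0.57, while *SCG2* in siHHEX goes up and the siYAP/TAZ circles stay nearly in place.

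*FMC1* overlaps the splicing factor gene *LUC7L2* on the same strand. They share 68 exonic bases (5.12% of those of *FMC1*), 0 of them in the canonical *FMC1* transcript. A readthrough transcript of both genes is named C7orf55-LUC7L2 in the deposited tables. Of the canonical *FMC1* transcript, 284 bases (28.0%) are also exonic in the readthrough. In FPKM, *FMC1* was the smallest of these 3 rows in siNC, 2.42 against 26.3 for the readthrough and 15.8 for *LUC7L2* in siNC 1, and 2.88 against 21.7 and 18.8 in siNC 2. In siHHEX 1 the rows were at 11.2, 26.4 and 7.32 FPKM, in siHHEX 2 at 7.04, 31.3 and 15.1 FPKM and in siHHEX 3 at 9.63, 24.3 and 7.60 FPKM. *FMC1* was thus highest in the siHHEX libraries in which *LUC7L2* was lowest. The summed level of the 3 rows was 43.9 ± 0.798 FPKM over the siNC pair (SD, n = 2) and 46.6 ± 6.11 FPKM over the siHHEX libraries (SD, n = 3), a difference inside the spread of siHHEX, and the *FMC1* share of the sum was 5.45% and 6.66% in siNC but 24.9%, 13.2% and 23.2% in siHHEX. In siYAP/TAZ it was 10.1% and 10.2% of sums of 51.3 and 56.9 FPKM, and in the library labelled siTEAD1/2/3/4 6.11% of 54.7 FPKM. *LUC7L2* fell in siHHEX by 0.80 on the log2 scale (limma, adjusted p = 0.0435), which was -0.69 with an adjusted p of 0.133 in limma after the GC and length correction. The readthrough changed by 0.18 (limma, adjusted p = 0.331). How reads in the shared bases were divided between the 3 rows is not given in the sources used here, so that the level of *FMC1* alone is uncertain, and its part in the higher *FMC1* values was not tested.

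**Figure D4:**
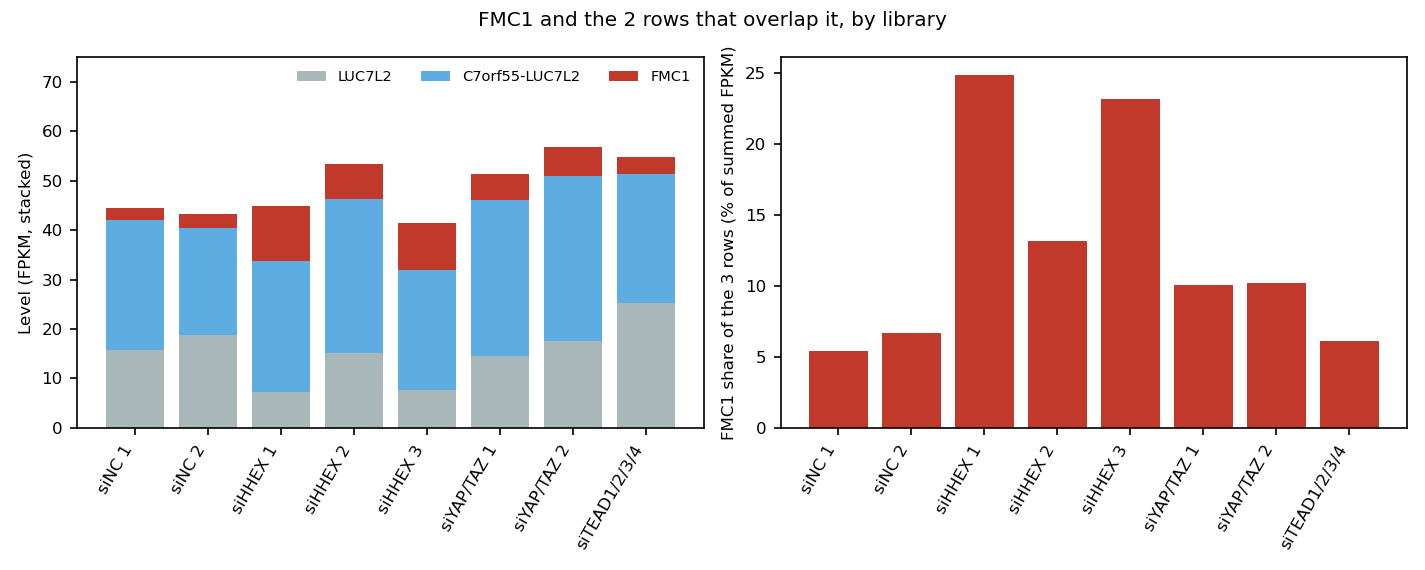
Left, FPKM of *FMC1*, C7orf55-LUC7L2 and *LUC7L2* stacked for each of the 8 libraries; right, *FMC1* as a percent of the 3 rows' summed FPKM. The summed height runs from 41.5 to 56.9 FPKM, while the *FMC1* share is 5.45% and 6.66% in siNC and 13.2% to 24.9% in siHHEX.

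*WBP1* and *HABP4* also overlap other genes. Of the canonical *WBP1* transcript, 941 bases (80.1%) lie in the INO80B-WBP1 readthrough, which has no row of its own in the tables, so that fragments of both could count for *WBP1*. The upstream *INO80B*, a chromatin remodeller subunit gene 455 bases away, had 8.94 and 10.7 FPKM in siNC, 13.6, 10.9 and 18.1 FPKM in siHHEX and 13.2 and 18.9 FPKM in siYAP/TAZ, log2 changes of 0.47 (limma, adjusted p = 0.112) and 0.64 (limma, adjusted p = 0.115). *MOGS*, the glucosidase gene that begins the trimming of N-glycans, lies 165 bases beyond *WBP1* on the other strand and rose in siHHEX by 0.60 (limma, adjusted p = 0.00779). In *HABP4*, 1096 bases (41.3%) of the canonical transcript are exonic in *CDC14B*, a phosphatase gene on the opposite strand, and without known strand in the counting their reads cannot be told apart. *CDC14B* had log2 changes of -0.34 (limma, adjusted p = 0.158) in siHHEX and 0.18 (limma, adjusted p = 0.586) in siYAP/TAZ, both smaller than those of *HABP4*. *STK40* and *SCG2* overlap no other annotated coding or lncRNA gene. Next to *STK40*, the histone pre-mRNA processing gene *LSM10* rose in siHHEX by 0.65 (limma, adjusted p = 0.0151), and the transcription factor gene *ZNF367* below *HABP4* fell by 0.90 (limma, adjusted p = 0.0129). The list of neighbours and readthrough genes left out some of the nearest annotated genes and held some that were not nearest. Of the 10 tested from it, 2 rose and 2 fell in siHHEX, where 16.0% of all tested genes rose and 16.9% fell. In siYAP/TAZ, where 6.15% of tested genes rose and 2.13% fell, limma called 0 of the 10, with 3 higher at an unadjusted p under 0.05. After the GC and length correction limma called 0 of them in siHHEX, with 1 higher and 2 lower at an unadjusted p under 0.05, and *MOGS* passed in siYAP/TAZ at 0.41 (limma, adjusted p = 0.0367).

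Genes of known function around each member were then counted. Of 9 relatives and partners of HABP4, 2 rose and 3 fell in siHHEX, against 16.0% and 16.9% of all tested genes, counts close to the background in so short a list. Their median log2 change there was -0.04, but 0.03 under median scaling and 0.04 after the GC and length correction. In siYAP/TAZ limma called 0 of them, with 2 higher and 1 lower at an unadjusted p under 0.05. The paralog *SERBP1* went from 80.2 and 79.0 FPKM in siNC to 45.4, 64.8 and 47.1 FPKM in siHHEX, a fall by 0.61 (limma, adjusted p = 0.0182), opposite to *HABP4*. The RNA-binding genes *FMR1* and *FXR1* fell by 0.74 and 0.46 (limma, adjusted p = 0.0112 and 0.0307), and the elongation factor *EEF2* rose by 0.38 (limma, adjusted p = 0.0205). After the GC and length correction none of these 5 calls was left. *SERBP1* was at -0.14, *FMR1* at -0.31, *EEF2* at 0.07 and *FXR1* on the other side of 0, at 0.04 (limma, adjusted p = 0.449, 0.144, 0.609 and 0.863). The 1 gene of the 9 that passed then in siHHEX, where 2.99% of genes fell, was *RACK1*, a ribosomal scaffold gene. It was at -0.36 (limma, adjusted p = 0.0261) and had been at -0.04 (limma, adjusted p = 0.754). In siYAP/TAZ, where 3.29% of genes fell with the correction, 1 gene of the 9 passed. This was *PRMT1*, at -0.39 (limma, adjusted p = 0.0367), which had been at -0.41 (limma, adjusted p = 0.0738).

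The list called WBP relatives and PPxY partners held WBP1 relatives, PPxY partners of YAP and some genes with WW domains, such as *ITCH*. Of its 12 genes, 11 were tested, *AMOT* being below the filter. In siHHEX 6 of them fell and 0 rose in limma, with 1 higher at an unadjusted p under 0.05, against 16.9% falling and 16.0% rising over all tested genes, and in siYAP/TAZ 2 fell, against 2.13%. The median log2 change was -0.46 in siHHEX and -0.06 after the GC and length correction. The paralog *WBP1L* had a log2 change of 0.22 (limma, adjusted p = 0.456) in siHHEX and 0.66 (limma, adjusted p = 0.129) in siYAP/TAZ. *AMOTL2*, an angiomotin that binds YAP and a known YAP target gene, went from 14.3 and 14.6 FPKM in siNC to 3.65, 3.93 and 3.44 FPKM in siHHEX and 1.72 and 2.24 FPKM in siYAP/TAZ. Its log2 changes were -1.73 (limma, adjusted p = 0.00108) and -2.38 (limma, adjusted p = 0.000137). *PTPN14*, a phosphatase that holds YAP in the cytoplasm, and *LATS2*, a Hippo kinase, fell in siHHEX by 1.11 and 0.82 (limma, adjusted p = 0.00638 and 0.00719), and *ITCH*, a ubiquitin ligase gene with WW domains, by 0.76 (limma, adjusted p = 0.0126). *LATS2* also fell in siYAP/TAZ, by 0.72 (limma, adjusted p = 0.0298). *AMOTL2*, *PTPN14* and *LATS2* were the 3 of the list that passed after the GC and length correction, and they passed both in siHHEX, where 2.99% of genes then fell, and in siYAP/TAZ, where 3.29% did.

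Among 12 Tribbles relatives of STK40 and genes of the COP1 ligase, 3 rose and 2 fell in siHHEX, near the 16.0% and 16.9% of all tested genes, with a median log2 change of 0.19. *TRIB3*, the stress-induced Tribbles gene, went from 11.7 FPKM in both siNC libraries to 27.7, 19.1 and 24.8 FPKM in siHHEX, a log2 change of 0.95 (limma, adjusted p = 0.00789). *TRIB1* fell by 0.66 (limma, adjusted p = 0.0303), *TRIB2* stood at 0.23 (limma, adjusted p = 0.496) and *COP1* at -0.20 (limma, adjusted p = 0.251), and the Tribbles genes thus had changes of both signs. *CUL4A*, the cullin of the ligase, went from 15.6 and 15.5 FPKM in siNC to 7.78, 13.0 and 9.79 FPKM in siHHEX, a fall by 0.59 (limma, adjusted p = 0.0341). Of COP1 substrates, *JUN* rose in siHHEX by 0.52 (limma, adjusted p = 0.0461) and *ETV1* rose in siYAP/TAZ by 0.85 (limma, adjusted p = 0.0352). *ETV1* was the only one of the 12 to pass in siYAP/TAZ, near the 6.15% of all tested genes that rose there. After the GC and length correction *TRIB3* was at 0.58, *JUN* at 0.30 and *CUL4A* at -0.26 in siHHEX (limma, adjusted p = 0.0543, 0.275 and 0.324). *TRIB1*, at -0.76 (limma, adjusted p = 0.0452), was the 1 siHHEX call left in the list, where 2.99% of genes fell. In siYAP/TAZ *ETV1* passed with the correction as well, at 0.84 (limma, adjusted p = 0.0494), where 9.23% of genes rose.

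ATP synthase subunits and assembly factors, the setting of FMC1, rose in 8 of 22 genes in siHHEX, against 16.0% of all tested genes, with a median log2 change of 0.19. By limma 0 of them fell, with 1 lower at an unadjusted p under 0.05, and 0 passed in siYAP/TAZ, with 3 higher and 2 lower at an unadjusted p under 0.05. The highest were *ATP5MC3* and *ATP5MC1*, which encode the same ring subunit, at 0.67 and 0.60 (limma, adjusted p = 0.00812 and 0.0126), *ATP5IF1*, the inhibitor, at 0.59 (limma, adjusted p = 0.0158) and *ATP5MG* at 0.57 (limma, adjusted p = 0.0105). The other assembly factors of the list had values of both signs and did not pass, with *ATPAF1* at 0.15, *ATPAF2* at 0.31, *TMEM70* at -0.36 and *TMEM242* at -0.22 (limma, adjusted p = 0.406, 0.112, 0.0613 and 0.237). With the GC and length correction 2 of these 8 still passed, *ATP5MC3* and *ATP5MG*, while *ATP5MC1* was at 0.12 and *ATP5IF1* at 0.19 (limma, adjusted p = 0.451 and 0.301). *ATP5PB* passed then at 0.36 (limma, adjusted p = 0.0491), so that 3 of 22 rose, where 3.15% of genes rose and 2.99% fell in that fit. In siYAP/TAZ 2 of the 22 rose and 1 fell with the correction, close to the 9.23% and 3.29% of genes that rose and fell in that comparison.

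Granin and prohormone genes were largely silent, and 3 of 11 could be tested. *VGF*, another granule peptide precursor, went from 1.67 and 2.11 FPKM in siNC to 3.76, 4.43 and 8.41 FPKM in siHHEX and 4.28 and 4.11 FPKM in siYAP/TAZ. Its log2 change was 1.12 (limma, adjusted p = 0.0134) in siHHEX and 0.85 (limma, adjusted p = 0.0863) in siYAP/TAZ, and 0.71 (limma, adjusted p = 0.0676) in siHHEX after the GC and length correction. In siYAP/TAZ *VGF* passed after that correction, at 0.83 (limma, adjusted p = 0.0406). *CPE*, a carboxypeptidase of prohormone processing, rose in siYAP/TAZ by 0.80 (limma, adjusted p = 0.0253), from 12.2 and 11.6 FPKM to 18.6 and 24.6 FPKM. *PAM*, the peptide amidating enzyme gene, was the other gene tested, at -0.33 in siHHEX and -0.01 in siYAP/TAZ (limma, adjusted p = 0.223 and 0.99) and at -0.52 in the library labelled siTEAD1/2/3/4. *CHGA*, *PCSK1*, *PCSK2* and *NPY* were listed at 0 in all 8 libraries, beside *SCG2* at 2.503 to 12.1 FPKM.

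**Figure D5:**
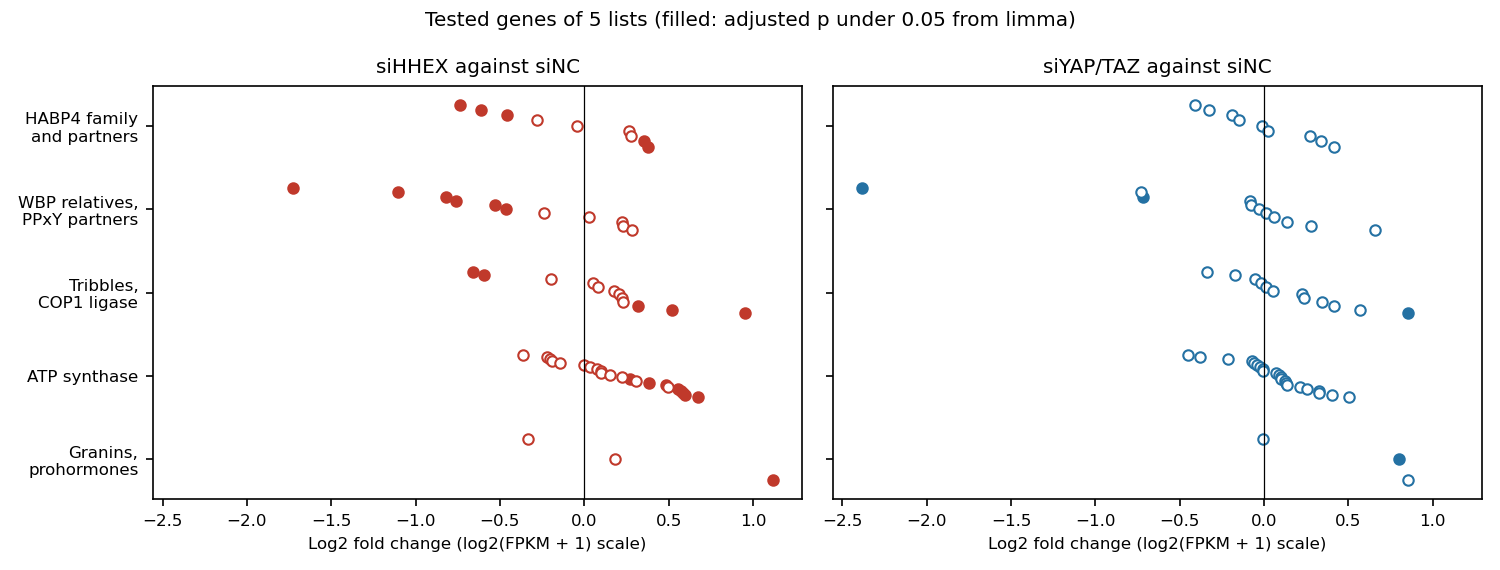
Log2 fold change on the log2(FPKM + 1) scale of each tested gene of 5 lists in siHHEX (left) and siYAP/TAZ (right) against siNC, with filled circles for an adjusted p under 0.05 in limma. The list of WBP relatives and PPxY partners includes some genes with WW domains. In siHHEX 6 of its 11 genes are filled below 0 and 8 of 22 ATP synthase genes above 0, while 4 circles are filled in siYAP/TAZ.

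Each of these list counts rested on both control libraries: without siNC 1 or without siNC 2, no gene passed in siHHEX in 5 of the 6 lists, and 1 of the WBP relatives and PPxY partners did. The counts in siYAP/TAZ rested on siYAP/TAZ 2 as well, since without it 1 gene of the 6 lists passed. Without siYAP/TAZ 1 the count was 4, as with all libraries, but the Tribbles and COP1 call was lost, 1 of the WBP relatives and PPxY partners passed in place of 2, and 1 ATP synthase gene and 1 neighbour passed. Without siHHEX 1, 1 gene passed in siHHEX among HABP4 relatives and partners and 1 among Tribbles and COP1 genes, and without siHHEX 3 these counts were 3 and 2, where all libraries gave 5 in each list. Without siHHEX 2, 10 ATP synthase genes rose and 2 fell in siHHEX, where all libraries gave 8 and 0. Of HABP4 relatives and partners 3 then rose and 4 fell, and of granin and prohormone genes 1 rose and 1 fell.

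The labelled cell type was set against its markers. Of 10 colon epithelial markers, 6 were at 1 FPKM or above in every library, led by *KRT8* at 1590.55 and 1707.23 FPKM in siNC, and *EPCAM*, *CDH1* and *CDX2* were among them. *CDX1* was listed at 0 in all libraries, and *VIL1*, *LGALS4* and *CEACAM5* were near 0. The summed markers were 3374.49 and 3517.47 FPKM in siNC, 3119.42 to 3659.97 FPKM in siHHEX, 2031.68 and 1976.74 FPKM in siYAP/TAZ and 2716.55 FPKM in the library labelled siTEAD1/2/3/4. The lower siYAP/TAZ sums came from the keratins, with *KRT8* and *KRT18* falling by 0.88 and 1.22 (limma, adjusted p = 0.00227 and 0.000861) and *KRT19* at -0.37 (limma, adjusted p = 0.179), while *EPCAM* was at -0.14, *CDX2* at 0.07 and *CDH1* at 0.30. In siHHEX *EPCAM* and *KRT18* fell by 0.38 and 0.29 (limma, adjusted p = 0.0289 and 0.0348). *CDX2* rose there by 0.42 (limma, adjusted p = 0.042). Of the 6 tested, 2 thus fell and 1 rose, against 16.9% and 16.0% of all tested genes. After the GC and length correction *KRT18* was at -0.69 and *KRT8* at -0.35 (limma, adjusted p = 0.00477 and 0.0477), where 2.99% of genes fell. *EPCAM* and *CDX2* were then at -0.27 and 0.13 (limma, adjusted p = 0.105 and 0.524). *SCG2* was set against 8 neuroendocrine markers, among which *INSM1*, *NEUROD1*, *CHGA* and *UCHL1* were listed at 0 in all 8 libraries. The neuroendocrine markers summed to 7.09 and 7.22 FPKM in siNC, 9.31 to 13.0 FPKM in siHHEX, 12.5 and 10.6 FPKM in siYAP/TAZ and 10.5 FPKM in the library labelled siTEAD1/2/3/4, nearly all from the glycolytic enzyme gene *ENO2*. *ENO2* and the vesicle gene *SYP* rose in siHHEX by 0.55 and 0.60 (limma, adjusted p = 0.0303 and 0.0424), at 0.34 and 0.29 (limma, adjusted p = 0.153 and 0.327) after the GC and length correction. *SYP* stood at 0.81, 0.92 and 1.93 FPKM in siHHEX 1, 2 and 3. Without siHHEX 3, 0 neuroendocrine markers passed in siHHEX, and without siHHEX 1 the count was 1. Of the colon epithelial markers, 1 passed in siHHEX without siHHEX 3 and 0 without siHHEX 1. In siYAP/TAZ, where *SCG2* was highest, *ENO2* had a log2 change of 0.60 (limma, adjusted p = 0.0662) and passed after the correction at 0.63 (limma, adjusted p = 0.0297). In bulk RNA, more cells of a type and more RNA per cell cannot be told apart. Summed fibroblast markers, led by *COL1A1*, were 0.726 to 2.71 FPKM, summed leukocyte markers, led by *CD68*, 3.58 to 8.21 FPKM, and summed endothelial markers, led by *KDR* in 5 libraries and *VWF* in 3, 0.0405 to 0.221 FPKM. Fibroblast and leukocyte sums were highest in siYAP/TAZ, at 2.71 FPKM in siYAP/TAZ 2 and 8.21 FPKM in siYAP/TAZ 1. *CD68* was at 0.59 in siYAP/TAZ (limma, adjusted p = 0.0775) and passed after the GC and length correction, at 0.62 (limma, adjusted p = 0.0465). *LYZ*, the other leukocyte marker tested, was then at 0.91 (limma, adjusted p = 0.155). siHHEX 3, the siHHEX library with the most *SCG2*, also stood apart, with a leukocyte sum of 6.93 FPKM against 3.58 and 4.15 FPKM in siHHEX 1 and 2 and a fibroblast sum of 1.83 FPKM against 0.926 and 0.726 FPKM. Their part in the *SCG2* and other values was not tested.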

How the data were processed

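RNA from HCT116 cells was extracted with Trizol and sequenced on an Illumina HiSeq instrument. The authors deposited 1 FPKM value per gene and library (fragments scaled by gene length and library total). Processing notes of the submitters name Trimmomatic 0.36, HISAT2 2.0.5, Cufflinks 2.2.1 and HTSeq 0.9.1, without saying which made these values, and the methods name DESeq for differential expression. The RNA-seq genome build, annotation and strand setting are not given in the sources used here. Reads were not counted here, so depth is unknown.

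Groups came from the labels. Genes that reached 1 FPKM in 2 or more libraries (10677 of 20030) were tested on log2(FPKM + 1) with limma 3.58.1 in R 4.3.3, in 1 fit of 8 libraries and 4 groups with a variance trend, two-sided and adjusted by Benjamini-Hochberg over all tested genes. The SE of a member comes from this fit. The 5 genes and the gene lists were chosen with earlier results of these data known. Named genes are the members, the 3 nearest profiles of each, neighbours, paralogs, knockdown targets and up to 4 passing genes with the largest change per list and comparison. *AMOT*, *RACK1*, *PRMT1*, *VWF*, *COP1*, *ATPAF1*, *ATPAF2*, *TMEM70*, *TMEM242*, *PAM*, *ATP5PB*, *CDX2*, *EPCAM*, *CDH1*, *KRT19*, *CD68*, *LYZ* and genes listed at 0 were named from the lists after their values were seen.

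Positions, GC content and length came from GENCODE annotation of GRCh38, matched by symbol for 99.4% of tested genes, and promoters from RefSeq. The GC and length correction took off natural splines of 4 degrees of freedom per library. Scripts were tested on simulated data. Other steps used Python 3.11.15, numpy 2.4.6, pandas 2.3.3 and matplotlib 3.10.9. Alternatives were a pseudocount of 0.1, no filter, median scaling, the GC and length correction, only the groups compared, a replicate block, both together, each library left out and the ratio of mean FPKM.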

Additional observations from a re-analysis of the deposited data

How the results depend on the processing

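All 202 values of the 5 genes under these alternatives were above 0. The genes were picked for values above siNC, and every knockdown library lay above both siNC libraries. Their sign was therefore largely fixed beforehand, and the sizes below say more. In siHHEX, *HABP4* (1.13) was 1.33 with a pseudocount of 0.1, 1.36 as a ratio of mean FPKM, 0.96 with the GC and length correction and 0.92 with this correction and the replicate block. *WBP1* (1.02) was 0.53 and 0.51 under the last pair, *STK40* (1.43) 0.98 under the last, and *SCG2* (1.03) stayed within its spread. *FMC1* (1.48) was 1.81 as a ratio of means, and, in sums chosen after seeing the data, 0.45 with its readthrough and 0.078 with *LUC7L2* as well. With 1 library left out, siHHEX changes were 1.06 to 1.23 for *HABP4*, 0.93 to 1.12 for *WBP1*, 1.22 to 1.64 for *STK40*, 1.34 to 1.64 for *FMC1* and 0.84 to 1.16 for *SCG2*. Median scaling shifted all siYAP/TAZ changes by -0.11 and all siHHEX changes by 0.07.

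Calls in siHHEX (3518 of 10677 genes) were 1907 with no filter, 651 with the GC and length correction, 2062 with the replicate block, 155 with both and 19 to 4839 with 1 library left out, 19 without siNC 1, 27 without siNC 2 and 2109 without siHHEX 1. Calls in siYAP/TAZ (884) were 320 with no filter, 1329 with the correction, 1759 with only the groups compared and 15 to 1317 with 1 library left out, 22 without siNC 1, 15 without siNC 2 and 92 without siYAP/TAZ 2. Genes past 2-fold in the library labelled siTEAD1/2/3/4 (95) were 285 with a pseudocount of 0.1. Of siHHEX calls 48.7% were higher, 60.5% under median scaling and 36.8% with the correction and the block, and of siYAP/TAZ calls 74.3% against 49.1% under median scaling. The cause of these moves was not tested. Same-numbered libraries deviated with correlations of -0.0704 to 0.0215, so that the numbers do not pair the libraries. Depth in reads is unknown, and levels near 1 FPKM are the least precise.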
